A study of Homo sapiens with 18 samples.

Results

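The laminin chain genes examined here were *LAMA1*, *LAMA2*, *LAMA3*, *LAMA4*, *LAMA5*, *LAMB1*, *LAMB2*, *LAMB3* and *LAMC1*. They were found by their symbols in the authors' deposited table of bulk RNA sequencing, which lists 21944 genes, and all 9 were present in its rows for 3, 6 and 24 h. The cells were pancreatic progenitors obtained from human embryonic stem cells, dissociated with accutase at day 19 of differentiation and reseeded in coated wells. The coating was either LN411, the laminin isoform made of the chains α4, β1 and γ1, or fibronectin (FN), a matrix glycoprotein that served as the control. Cells were harvested 3, 6 or 24 h later, so that the 6 groups were FN and LN411 at each time, with 3 samples in each group and 18 samples in all. No group carried a drug or a genetic change that the others lacked. The protocol in the labels gives the cells as NGN3-GFP, a NEUROG3 reporter line derived from SA121, while the cell line label reads HUES4. The paper's figure legend for this RNA sequencing also names NGN3-GFP. By the study's methods, the stem cells were grown and differentiated on LN521, another laminin isoform, before they were reseeded.

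The level of a gene was the mean normalized count of the authors' deposited table, that is, reads per gene divided by a size factor for each library and averaged over samples. This mean pooled both coatings and all 3 times, and a gene's value was the same in its rows for 3, 6 and 24 h, with a largest relative gap of 4.89e-07. The levels below therefore describe the culture as a whole. They have no replicate error, and neither a difference between LN411 and FN nor a course over time was analysed here. The mean normalized counts summed to 53217583 over all genes, while the depth of single libraries is unknown. To compare genes of unequal length, each mean was divided by the length of the gene's longest annotated transcript, which gives a mean normalized count per kilobase. The longest transcript of a gene need not be a coding one. Since the cells were sequenced in bulk, many cells with little RNA of a gene cannot be told apart from few cells with much of it.

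Laminins are large secreted proteins of the basement membrane, the sheet of matrix under an epithelium. Each is a cross-shaped trimer of an α, a β and a γ chain that assembles inside the cell before secretion, and isoforms are named by the numbers of their chains. The short arms link laminins into a network, and the end of the α chain binds integrins and dystroglycan on the cell surface. The α4 chain has no complete short arm, and LN411 is known for weak cell adhesion.

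Among the chains that make up LN411, RNA for the β1 and γ1 chains was abundant and RNA for the α4 chain was scarce. *LAMA4*, which encodes α4 and is best known from vessels, muscle and mesenchyme, had a mean normalized count of 21.0. *LAMB1*, the gene of the β1 chain, had a mean normalized count of 70863, and *LAMC1*, the gene of the γ1 chain found in most laminins, one of 29553. Per kilobase, these means were 2.91 for *LAMA4*, 10518 for *LAMB1* and 3727 for *LAMC1*. The level per kilobase of *LAMB1* was thus 3619 times that of *LAMA4*, and the level of *LAMC1* was 1282 times that of *LAMA4*. With the median coding transcript in place of the longest transcript, these ratios were 653 and 239. *LAMA4* was the lowest of the 9 genes with every length that was tried.

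The means of *LAMA4* over 18 samples add up to 378 normalized counts. Had all of these come from the 3 samples of a single group, the mean of that group would have been 126.1, or 17.4 per kilobase. This upper limit on *LAMA4* holds for any coating and time, provided that the authors' mean was taken over the 18 samples. The pooled level per kilobase of *LAMB1* was 603 times this limit, that of *LAMC1* 214 times and that of *LAMA1* 980 times. With the median coding transcript, these ratios were 109 for *LAMB1*, 39.8 for *LAMC1* and 106 for *LAMA1*. The low levels of *LAMA3* and *LAMA2* were 2.93 and 1.88 times the limit with the longest transcript. They were 2.36 and 1.47 times with the longest coding sequence, and 4.31 and 2.59 times without scaling. With the median coding transcript, which is only 729 bases for *LAMA4*, they were 0.740 and 0.324 times. Whether they lie above the limit thus depends on the length used. The limit covers where the counts of *LAMA4* could lie, and not the counting error of such a low value. The other genes enter these ratios as means over all 18 samples. Their ratios to *LAMA4* within any single group are therefore unknown.

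**Figure D1:**
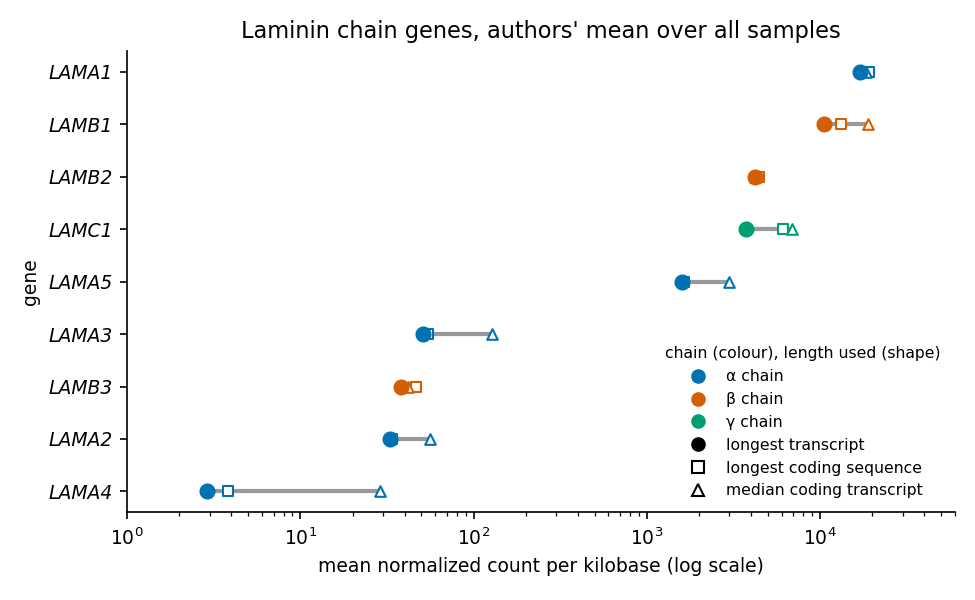
Mean normalized count per kilobase of the 9 laminin chain genes on a log axis, with colours for the α, β and γ chains. Filled circles use the longest transcript, open squares the longest coding sequence, open triangles the median coding transcript, and grey lines span the 3 values. *LAMA4* is lowest with each length, and the 5 genes from *LAMA1* to *LAMA5* lie at 1588 per kilobase or above.

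The α chain carries the main binding sites for cells, and among the α chains *LAMA1* stood first. *LAMA1* (ENSG00000101680, chromosome 18 of GRCh38, 6941742 to 7117797, minus strand) encodes the α1 chain of LN111, a laminin of early embryonic basement membranes. Its mean normalized count was 177392, which placed it at rank 12 of all genes, and at rank 112 per kilobase with a level of 17099.6. The gene is long, with 62 exons and 10374 bases in its longest annotated transcript, and its rank is lower per kilobase than by counts. Its only annotated coding transcript has 9642 bases. *LAMA5* (ENSG00000130702, chromosome 20, 62307955 to 62367312, minus strand), which encodes the α5 chain of LN511 and LN521, had a mean normalized count of 18141 and 1588 per kilobase. The level per kilobase of *LAMA1* was 10.8 times that of *LAMA5*, and 5883 times that of *LAMA4*. With other lengths or none, the ratio of *LAMA1* to *LAMA5* lay between 6.16 and 11.7, and that of *LAMA1* to *LAMA4* between 638 and 8443.

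The other α chain genes were far below *LAMA5*. *LAMA3* (ENSG00000053747, chromosome 18, 23689453 to 23956222, plus strand), whose α3 chain is found under hemidesmosomes, had a mean normalized count of 543.5 and 51.0 per kilobase. *LAMA3* is transcribed from separate start sites into a long and a short form, and this table gives no level for either form. *LAMA2* (ENSG00000196569, chromosome 6, 128883138 to 129516566, plus strand), whose α2 chain is the main α chain of muscle and nerve sheaths, had a mean normalized count of 326.8 and 32.8 per kilobase. *LAMA4* (ENSG00000112769, chromosome 6, 112107931 to 112254939, minus strand) has a shorter longest transcript than these genes, with 7228 bases in 39 exons. The level per kilobase of *LAMA2* was 11.3 times that of *LAMA4*, and the level of *LAMA3* was 17.6 times that of *LAMA4*. With the median coding transcript, the ratios were 1.94 and 4.44. Of the summed level per kilobase of the 5 α chain genes, *LAMA1* held 91.1%, *LAMA5* 8.46%, *LAMA3* 0.272%, *LAMA2* 0.175% and *LAMA4* 0.0155%. *LAMA1* and *LAMA5* thus held nearly all of the α chain RNA in this pooled mean.

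The β chains were led by *LAMB1*, with *LAMB2* next. *LAMB1* (ENSG00000091136, chromosome 7, 107923799 to 108003213, minus strand) was at rank 51 of all genes by mean normalized count and at rank 193 per kilobase. *LAMB2* (ENSG00000172037, chromosome 3, 49121114 to 49133118, minus strand) encodes the β2 chain, known from the kidney filter and the neuromuscular junction and part of LN521. It had a mean normalized count of 23902 and 4199 per kilobase, so that *LAMB1* was 2.50 times higher per kilobase. *LAMB3* (ENSG00000196878, chromosome 1, 209614870 to 209652425, minus strand), the gene of the β3 chain of skin basement membranes, had a mean normalized count of 163.6 and 38.0 per kilobase. The level per kilobase of *LAMB2* was 110 times that of *LAMB3*. Of the summed level per kilobase of 4 β chain genes, with *LAMB4* included, *LAMB1* held 71.3%, *LAMB2* 28.5% and *LAMB3* 0.258%.

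*LAMC1* (ENSG00000135862, chromosome 1, 183023420 to 183145592, plus strand) was the only γ chain gene among the 9. It was at rank 210 of all genes by mean normalized count and at rank 706 per kilobase. Of other laminin chain genes, *LAMB4* and *LAMC3* were near the bottom of the table, with 9.47 normalized counts for *LAMB4* and 3.86 for *LAMC3*. Per kilobase, *LAMC3* had 0.518, against 3727 for *LAMC1*.

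**Figure D2:**
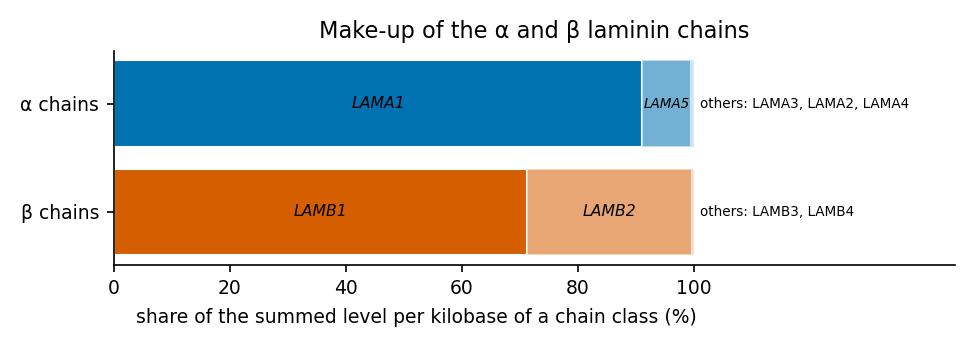
Share, in percent, of the summed mean normalized count per kilobase held by each gene within the α and β chains, using the longest transcript. *LAMA1* holds 91.1% of the α chain level and *LAMB1* 71.3% of the β chain level. Genes too low to be seen in a bar are named beside it.

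Set against all genes, the laminin chain genes fell into a high and a low set. The percentile of a gene is the percentage of the other genes that had a lower level per kilobase. *LAMA1*, *LAMB1*, *LAMB2*, *LAMC1* and *LAMA5* had percentiles of 99.5, 99.1, 97.2, 96.8 and 91.3. *LAMA3*, *LAMB3* and *LAMA2* had percentiles of 41.8, 37.9 and 35.9, and *LAMA4* had one of 4.45. The median over the 9 genes was 1588 per kilobase, against 99.6 over the 21861 genes with a known length. By mean normalized count without scaling, 5076 genes of the table were at or below *LAMA4*. In order of level per kilobase, the genes were *LAMA1*, *LAMB1*, *LAMB2*, *LAMC1*, *LAMA5*, *LAMA3*, *LAMB3*, *LAMA2* and *LAMA4*. Without replicate values, no neighbours in this order could be tested against each other. The ratio of *LAMB2* to *LAMC1* was 1.13 per kilobase and between 0.612 and 0.809 with other lengths or none. Likewise, *LAMA1* was 1.63 times *LAMB1* per kilobase and 0.977 times with the median coding transcript.

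**Figure D3:**
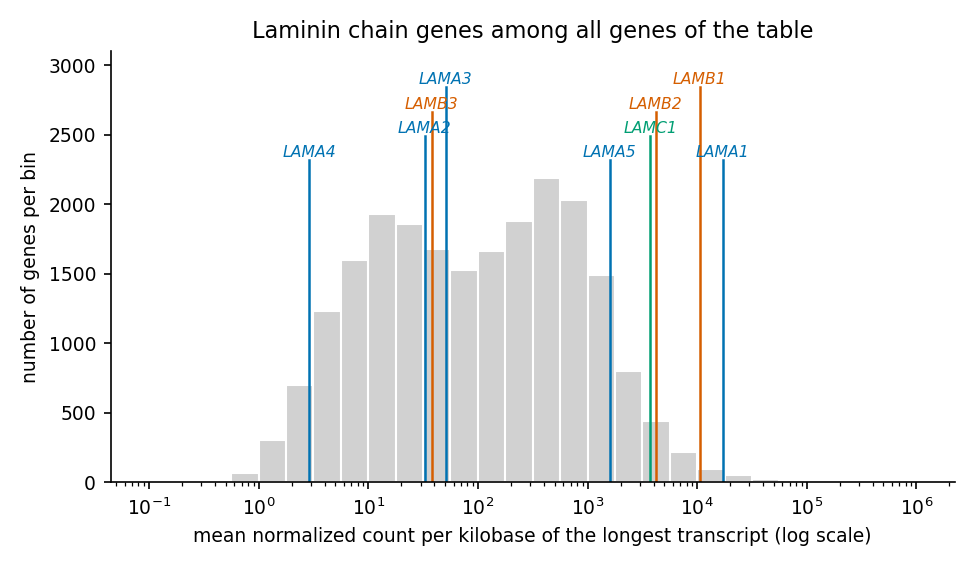
Number of genes in each bin of mean normalized count per kilobase (log axis, grey bars, all genes with a length), with the 9 laminin chain genes as vertical lines coloured by chain class. The 5 high genes lie to the right of the bulk of genes, at percentiles of 91.3 and above, and *LAMA4* lies near the left edge at 4.45.

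Summed over the genes named above, the level per kilobase was 18774 for the α chain genes and 14757 for the β chain genes. The α class was above the β class with the longest transcript, the longest coding sequence and no scaling, and below it with the median coding transcript, at 21597 against 23083. These are amounts of RNA, and the amounts of chains and of secreted trimers were not measured here.

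Laminins lie in the basement membrane beside type IV collagen, nidogens and heparan sulfate proteoglycans, and RNA for most of these partners was abundant too. Of 11 partner genes, 8 had a percentile of at least 90, and their median was 4502 per kilobase. *HSPG2*, which encodes perlecan, was highest with 9987 per kilobase and a mean normalized count of 143219. *LAMA1* was 1.71 times *HSPG2* per kilobase, 1.77 times with the longest coding sequence and 1.24 times without scaling. With the median coding transcript it was 0.111 times. For *HSPG2* that median is 865 bases, against 14341 bases in its longest transcript, which raises its level per kilobase. Among the collagen IV genes, *COL4A2*, *COL4A5*, *COL4A6* and *COL4A1* had 7569, 5907, 4901 and 4214 per kilobase. The remaining collagen IV genes, *COL4A4* and *COL4A3*, had only 6.56 and 2.61 per kilobase, and *COL4A3* was the only partner gene below *LAMA4*. *AGRN*, the gene of agrin, had 4961 per kilobase and *COL18A1*, the gene of collagen XVIII, 4502. *NID1* and *NID2*, whose nidogens join laminin to collagen IV, had 1957 and 602 per kilobase.

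All 9 genes of laminin receptors were above *LAMA4*, but so were most genes of the table, since *LAMA4* had a percentile of 4.45. Of the 9 receptor genes, 4 had a percentile of at least 90. *BCAM*, a receptor of the α5 chain, was highest with 14636 per kilobase, followed by *ITGB1*, the β1 integrin shared by most matrix receptors, with 7757. *DAG1*, the gene of dystroglycan, had 2915 per kilobase. Of the integrin α subunits that bind laminin, *ITGA6* had 2679 per kilobase, *ITGA3* 514, *ITGA1* 238, *ITGA7* 137 and *ITGA2* 92.9. *ITGB4*, the partner of integrin α6 in hemidesmosomes, had 159 per kilobase.

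RNA for fibronectin, the protein of the control coating, was abundant in the cells. *FN1* had the highest mean normalized count of all genes, at 716487, and was at rank 19 per kilobase with 78125. This was 4.57 times the level per kilobase of *LAMA1*. Among the genes of fibronectin receptor subunits, *ITGB5*, *ITGAV* and *ITGA5* had 2410, 1727 and 1494 per kilobase, *ITGB6* 94.6 and *ITGB3* 1.33. The level per kilobase of *FN1* was 26877 times that of *LAMA4*, and 3148 times with the median coding transcript.

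**Figure D4:**
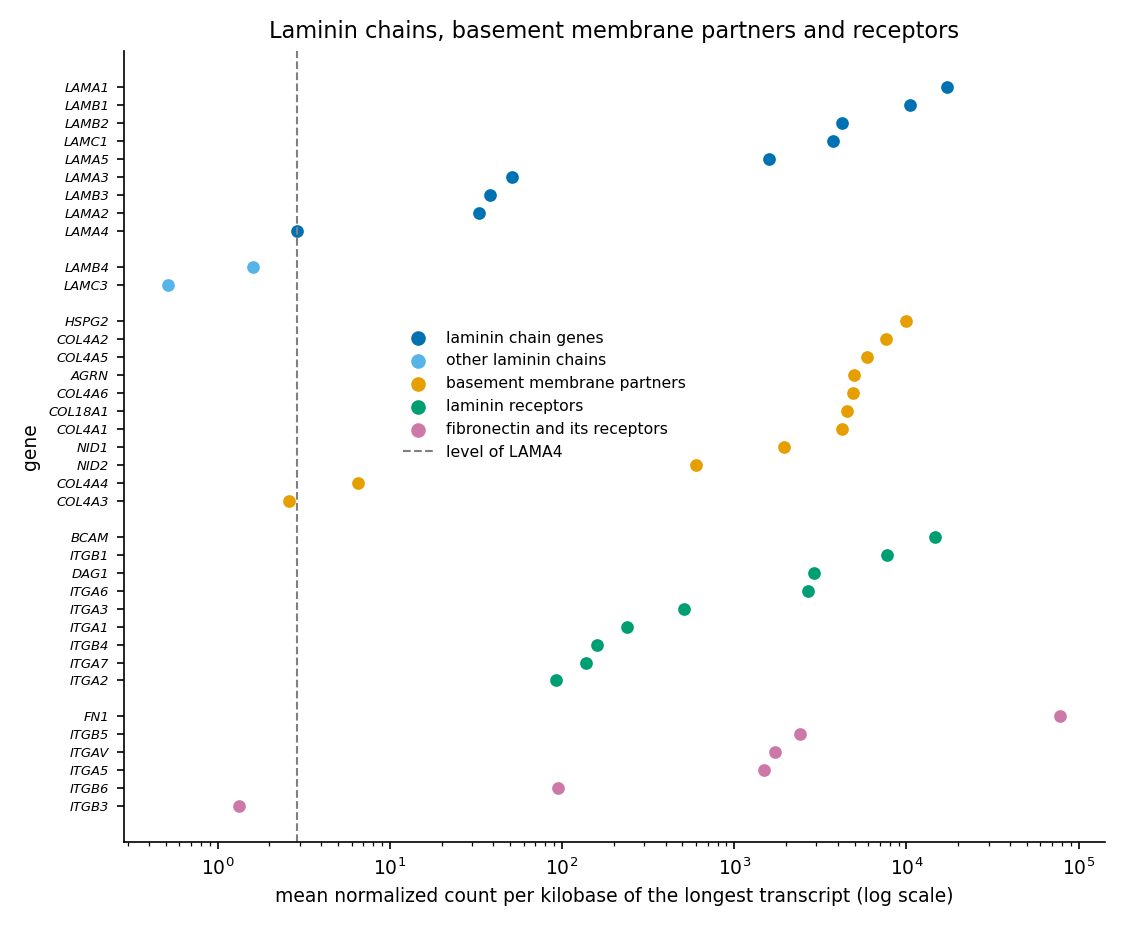
Mean normalized count per kilobase of the longest transcript (log axis) for the 9 laminin chain genes, 2 other laminin chains, 11 basement membrane partners, 9 laminin receptors and 6 genes of fibronectin and its receptors, sorted within each list. The dashed line marks *LAMA4* at 2.91, and the genes below it are *LAMB4*, *LAMC3*, *COL4A3* and *ITGB3*.

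The label of the cells was compared with marker genes. All 10 markers of pancreatic progenitors had a level, with a median of 1483 per kilobase, and *GP2*, *SOX9* and *PDX1* had 40743, 5259 and 4969. *PTF1A*, which is needed for the earliest progenitors and later for acinar cells, was an exception with 8.10 per kilobase. Markers of endothelial, mesenchymal and muscle cells, all known for *LAMA4*, were mixed. Schwann cells, which the paper names beside endothelial cells as high in *LAMA4* in the fetal pancreas, had no marker list. The 5 endothelial markers ranged from 1.24 per kilobase for *CDH5* to 11.0 for *PECAM1*, all in the lower part of the table. Of the mesenchymal markers, *COL1A2*, *COL1A1*, *PDGFRA* and *COL3A1* had 7527, 692, 136 and 58.3 per kilobase. *PDGFRB*, the lowest of them, had a mean normalized count of 113.8. Of the muscle markers, *ACTA2* had 106 and *DES* 2.88 per kilobase. The hepatic list had 59903 per kilobase for *TTR*, 12507 for *APOA1*, 10996 for *AFP* and 280.0 for *ALB*. From the pluripotent list, *LIN28A* had 2599 and *SOX2* 3.76 per kilobase, while *POU5F1* and *NANOG* had no value. For the neural list, *STMN2* had 162 and *TUBB3* 61.5 per kilobase. The listed markers *DCN* (mesenchymal), *MYH11* (muscle) and *ELAVL4* (neural) had no value either. Among endocrine genes, *CHGA* had 2172 per kilobase, while *NEUROD1* and the hormone gene *GCG* had 19.8 and 14.5. *INS* had a mean normalized count of 8.32. The part of any such cells in the levels of the laminin chain genes was not tested.

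Some laminin chain genes share exon bases with other genes, which can affect how reads are counted. In GENCODE v44, the exons of 5 of the 9 genes overlap exons of 9 genes on the opposite strand, over 0.560% to 10.3% of the member's exon bases. The sources used here do not say whether counting used the strand. *LAMB1* shares 300 bases with *DLD*, which had a mean normalized count of 4692, and *LAMA5* shares 244 bases with *ADRM1*, which had 2945. *LAMA1* shares 1641 bases with an antisense RNA at 8.40 normalized counts. For *LAMA4*, with 21.0 normalized counts, 206 bases are shared with an antisense RNA. Whether any of these overlaps raised or lowered the counts of a laminin chain gene was not tested.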

How the data were processed

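Polyadenylated RNA of 18 samples was sequenced. Per the labels and the paper's methods, the authors aligned reads with STAR (2.7.2d) to GRCh38, counted reads per gene with the GENCODE v32 annotation and normalized them with DESeq2 (1.34.0). The deposited table holds a mean normalized count, a signal that the authors pooled over samples, and 5 columns of the authors' own comparisons of LN411 with FN (log2 fold change, standard error, statistic, p-value and adjusted p-value), which were not used. No test was run and no interval was given, since the value used is a pooled mean.

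Lengths and positions came from GENCODE v44 on GRCh38, matched by Ensembl identifier for 99.6% of genes. Ranks, percentiles and shares were computed with Python 3.11.15, numpy 2.4.6 and pandas 2.3.3 and tested on simulated data. Alternatives were other lengths, no scaling and a minimum mean of 10. The text names all members and the genes of the partner, receptor and marker lists. Members and lists were chosen with earlier results of these data known. Results for a further gene of the lists are not reported here. Sequences were not used here.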

Additional observations from a re-analysis of the deposited data

How the results depend on the processing

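The share of the summed α chain level held by *LAMA4* was 0.0155% with the longest transcript, 0.0107% without scaling by length, 0.133% with the median coding transcript and 0.0183% with the longest coding sequence, the last of which was chosen after seeing the data. The median over the 15 coding transcripts annotated for *LAMA4* is 729 bases, which raises its level per kilobase. Of the 9 genes, 5 were at the same place in the order of levels without scaling, 3 with the median coding transcript and 7 with the longest coding sequence, and *LAMA4*, *LAMA3* and *LAMA5* held their places in all of these. Among the 19259 genes with a mean of at least 10, the percentile of *LAMA4* was 1.28 in place of 4.45. What depth limits could not be assessed from a pooled mean, which has no counting error. The tests of LN411 against FN, their normalizations, filters and fits without single samples, and coding lengths from RefSeq proteins, were not run. No paired analysis was possible because the values used are pooled over all samples.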
